A study of Homo sapiens and Homo sapiens
Mus with 12 samples.

Results

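RNA-seq counts of 10 human genes of the circadian clock and its feedback arm, BHLHE40, BHLHE41, PER1, PER2, PER3, CRY1, CRY2, NR1D2, CLOCK and DBP, were examined in UM-UC-3 cells with and without knockdown (KD) of CDH11, in culture and in xenograft tumors. All 10 genes were listed in the table of cultured cells, among 21466 genes with values, and in the table of human genes of the tumors, among 26813. They were chosen from results of the cultured cells, so the comparisons of cultured KD cells with controls are given below as a description: no p-value is printed for them, and the number of members past a threshold stands only beside the share of all genes. UM-UC-3 is a bladder cancer cell line that the study treats as advanced. The cells carried a GIPZ lentiviral vector with GFP and either a nonsilencing hairpin (shCtrl) or 1 of 2 hairpins against CDH11 (sh#1 and sh#2), and infected cells were sorted as pools by their GFP, so all groups shared the vector, the GFP and the sort. Cultured cells were plated for 24 hours before RNA extraction, with 3 libraries per group. Tumors, 5 per group, were grown from the same lines in Matrigel under the skin of male nude mice (BALB/cAJcl-nu/nu) injected at 5 weeks of age and were sampled 4 weeks later, from hosts that lack a thymus and so most T cells. The labels do not say whether cultured libraries came from separate cultures, so p-values measure only the spread between these libraries, which may be technical. The hour of sampling is not in the labels.

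The mammalian clock is a transcriptional feedback loop. CLOCK, paired with BMAL1, binds E-box sequences and switches on PER and CRY genes, whose proteins return to the nucleus and block their own activator. REV-ERB proteins, among them the product of NR1D2, repress BMAL1, and DBP carries the rhythm to output genes through D-box sequences. BHLHE40 (DEC1) and BHLHE41 (DEC2) are repressors of the basic helix-loop-helix family that also bind E-boxes and dampen CLOCK activity, and both are well known as genes that rise under low oxygen.

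The promoters of BHLHE40, BHLHE41 and NR1D2, members that stood apart from the controls in culture, are shown because they hold an E-box, where the clock activator and both DEC proteins bind. BHLHE40 (ENSG00000134107) lies on chromosome 3 from 4979437 to 4985323 on the plus strand of hg38 in the GENCODE v44 annotation, BHLHE41 (ENSG00000123095) on chromosome 12 (26120030 to 26125037, minus strand), and NR1D2 (ENSG00000174738) on chromosome 3 (23945286 to 23980617, plus strand). The 250 bases before the start site in RefSeq (build GRCh38.p14) are given 5′ to 3′ on the strand of the gene, with capitals for matches on either strand to the E-box CACGTG, to the core of the hypoxia response element ACGTG, which every CACGTG also holds, or to a D-box (TTATGTAA or TTATGCAA). The windows are chr3:4979187-4979436 (plus strand) for BHLHE40, chr12:26125038-26125287 (minus strand) for BHLHE41, and chr3:23945871-23946120 (plus strand) for the second of 2 windows listed for NR1D2, which lies within the annotated gene, before a later start.
BHLHE40: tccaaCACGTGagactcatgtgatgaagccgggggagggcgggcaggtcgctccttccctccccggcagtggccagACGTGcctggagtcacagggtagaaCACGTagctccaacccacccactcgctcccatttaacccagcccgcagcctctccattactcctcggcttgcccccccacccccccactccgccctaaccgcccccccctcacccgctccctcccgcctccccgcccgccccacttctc
BHLHE41: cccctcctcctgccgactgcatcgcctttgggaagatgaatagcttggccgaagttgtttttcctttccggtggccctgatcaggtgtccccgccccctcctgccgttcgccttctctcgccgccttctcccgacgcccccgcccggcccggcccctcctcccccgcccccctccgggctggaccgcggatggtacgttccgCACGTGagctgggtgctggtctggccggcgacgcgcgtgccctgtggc
NR1D2: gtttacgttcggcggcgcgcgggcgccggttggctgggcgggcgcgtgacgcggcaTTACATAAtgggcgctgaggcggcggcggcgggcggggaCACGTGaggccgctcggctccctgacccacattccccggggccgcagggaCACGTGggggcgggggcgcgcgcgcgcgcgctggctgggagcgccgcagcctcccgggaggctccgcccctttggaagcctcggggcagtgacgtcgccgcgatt

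The E-box of BHLHE40 lies from 245 to 240 bases before the start, with 2 more copies of the core without a full E-box nearer to it, and that of BHLHE41 from 48 to 43 bases before the start. The NR1D2 window holds 2 E-boxes, from 155 to 150 and from 105 to 100 bases before the start, and a D-box from 194 to 187. The other NR1D2 window held none of these letters. An exon of a long noncoding RNA on the same strand (ENSG00000256894) covers 133 bases of the BHLHE41 window in GENCODE. The window of PER1, which overlaps an exon of another PER1 transcript and is not printed, holds 1 E-box from 173 to 168 bases before the start and a D-box. The windows of PER2, PER3, CRY1, CRY2, CLOCK and DBP hold no E-box of these letters. The hypoxia core also occurs in the windows of PER1, PER2 and CRY1 and in a window of CRY2 and of CLOCK. A window of PER3 holds a D-box. Of 35116 windows of the same length, 6.34% held an E-box, 18.5% the hypoxia core and 1.61% a D-box, and a match is a description of the letters, not evidence of binding.

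Totals counted on genes ranged from 2273182 to 2777019 per cultured library, from 414849 to 1248977 human counts per tumor and from 94406 to 220238 mouse counts per tumor. CDH11, the targeted gene, had 2 to 4 counts in shCtrl, 0 to 1 in sh#1 and 0 to 2 in sh#2 cultured libraries, too few to judge the knockdown at this depth, and 5 to 32, 1 to 9 and 2 to 14 human counts in the tumors. The cells carried KRT8 and KRT18 (at least 253 and 287 counts in every cultured library) and VIM (at least 5189), while the urothelial markers UPK1B, UPK3A, EPCAM and CDH1 had 0 counts in all 9 cultured libraries. The summed level of the 15 urothelial markers ran from 239 to 271 normalized CPM (counts relative to the library total, after TMM scaling) in shCtrl, 310 to 326 in sh#1 and 280 to 294 in sh#2 cultures, and that of 4 mesenchymal markers from 2280 to 2450, 2380 to 2580 and 4070 to 4490. Most of the former sum was KRT8 and KRT18, and most of the latter was VIM. With sh#1, FN1 (log2 fold change -1.53, q = 0.0002 in edgeR) and CDH2 (-0.58, q = 0.0021) were lower and KRT18 (0.54, q = 2.7e-07) was higher. With sh#2, VIM (0.87, q = 1.9e-19) and UPK1A (3.39, q = 7.4e-07, on 0 to 20 counts per library) were higher. UPK1A passed the low-count filter through the sh#2 libraries. The other markers tested were not past the threshold with either hairpin. The part of these differences in the results below was not tested.

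In cultured cells, both DEC repressors were far higher in every KD library than in every control library. BHLHE40 stood at 7.87, 11.1 and 7.62 normalized CPM in shCtrl, 74.2, 82.2 and 82.4 in sh#1 and 101, 101 and 110 in sh#2. BHLHE41 stood at 3.54, 4.51 and 4.95 in shCtrl, 64.0, 65.2 and 62.0 in sh#1 and 118, 116 and 100 in sh#2. For both genes the 3 groups did not overlap, with shCtrl lowest and sh#2 highest. The log2 fold change in CDH11 KD against shCtrl was 3.37 with a standard error (SE) of 0.19 for BHLHE40 and 4.31 (SE 0.36) for BHLHE41, in a fit of edgeR with both hairpins together. In a fit of 3 groups it was 3.17 (SE 0.16) with sh#1 and 3.55 (SE 0.15) with sh#2 for BHLHE40, and 3.86 (SE 0.19) and 4.66 (SE 0.17) for BHLHE41. The shCtrl libraries held only 9, 11 and 13 BHLHE41 counts, and the gene passed the low-count filter through the KD libraries.

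Among the PER genes, whose proteins are core inhibitors of the loop, PER1 was higher and PER2 and PER3 lower in KD cells. PER1 levels were 4.72, 5.74 and 7.24 normalized CPM in shCtrl, 18.5, 11.7 and 13.7 in sh#1 and 13.1, 19.1 and 17.0 in sh#2, all KD libraries above all controls, with a log2 fold change of 1.38 (SE 0.24). PER2 levels were 9.45, 8.20 and 9.15 in shCtrl, 5.74, 6.95 and 5.99 in sh#1 and 6.999, 7.17 and 7.79 in sh#2. All 6 KD libraries lay below the controls, but the log2 fold change of PER2 was small, -0.41 (SE 0.23). PER3 had 10, 7 and 7 counts in shCtrl, 1, 2 and 2 in sh#1 and 3 in each sh#2 library, again without overlap, and did not pass the low-count filter. PER1 and PER2, which both partner the CRY proteins, stood on opposite sides of the controls in these cells.

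NR1D2, which encodes REV-ERBβ, a repressor of BMAL1, was lower in KD cells. Its levels were 9.05, 11.5 and 8.003 normalized CPM in shCtrl, 2.87, 5.65 and 3.88 in sh#1 and 3.73, 4.30 and 3.41 in sh#2, with a log2 fold change of -1.25 (SE 0.27). No KD library reached the lowest control. NR1D2 passed the low-count filter through its shCtrl libraries, since 1 of the 6 KD libraries reached the level the filter asks for, 4.26 CPM before TMM scaling. It is paired in most tissues with NR1D1, which had 10 counts over the 3 shCtrl libraries, 19 over sh#1 and 19 over sh#2 and was too low to test.

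The remaining members showed small differences. CRY1, a strong inhibitor of the CLOCK complex, stood at 16.9, 18.5 and 21.3 normalized CPM in shCtrl, 23.0, 26.5 and 28.5 in sh#1 and 21.0, 28.7 and 23.9 in sh#2, with a log2 fold change of 0.42 (SE 0.16) and 1 sh#2 library inside the range of the controls. CRY2, its close relative, had 7 to 13 counts in every library and a log2 fold change of -0.14 (SE 0.34). CLOCK ranged from 21.7 to 24.0 normalized CPM in shCtrl, 23.0 to 25.4 in sh#1 and 13.4 to 25.2 in sh#2, and its value in the combined comparison was -0.05 (SE 0.18). DBP ranged from 11.1 to 11.4 in shCtrl, 8.46 to 11.9 in sh#1 and 8.87 to 11.5 in sh#2, with -0.19 (SE 0.20).

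Of the 9 members that passed the filter in culture, 4 were past a q value (Benjamini-Hochberg adjusted p) of 0.05 in CDH11 KD, BHLHE40, BHLHE41 and PER1 higher and NR1D2 lower, beside 17.4% of all 9859 genes tested. The members were chosen from these samples, so nothing is read from that count. With sh#1 alone 5 members were past the threshold, CRY1 being the fifth, beside 22.4% of genes, and with sh#2 alone the same 4 as in the combined fit beside 38.3%. Without overlap between the 6 KD and the 3 shCtrl libraries were 5 of these 9 members, and PER3 besides, where 22% of the genes tested did not overlap. The comparisons of the hairpins with shCtrl share the control libraries.

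**Figure D1:**
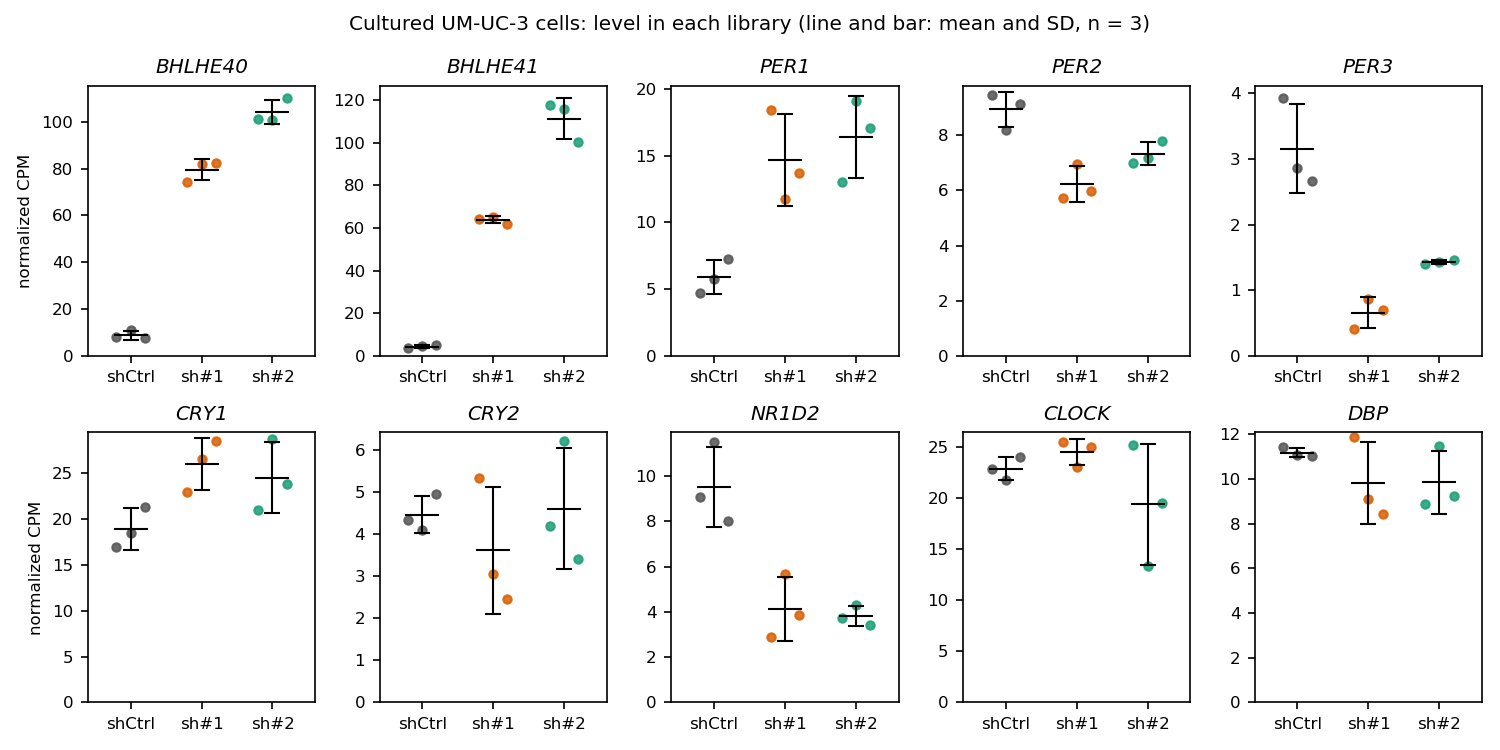
Normalized CPM (y axis, linear from 0, a scale of its own for each gene) of the 10 genes in each cultured library, with 3 shCtrl, 3 sh#1 and 3 sh#2 libraries as points and mean and SD as line and bar. BHLHE40 rises from at most 11.1 in shCtrl to at least 74.2 in the KD libraries and BHLHE41 from at most 4.95 to at least 62.0, while NR1D2 falls from at least 8.003 to at most 5.65.

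The difference between the hairpins was not the stated basis of the choice of genes and was tested. The choice used these same libraries, with earlier results of the data known, so the q values are not from fresh samples. Both DEC genes were lower with sh#1 than with sh#2. The mean of BHLHE40 was 79.6 ± 4.67 (SD, n = 3) normalized CPM with sh#1 and 104 ± 5.23 (SD, n = 3) with sh#2, a log2 difference of -0.38 (SE 0.10, q = 0.0038 in edgeR's quasi-likelihood test). That of BHLHE41 was 63.7 ± 1.61 (SD, n = 3) and 111 ± 9.46 (SD, n = 3), a log2 difference of -0.81 (SE 0.11, q = 2.8e-08). These 2 were past the threshold among 9 members tested, in the same direction, beside 24.7% of all genes. The sh#1 and sh#2 libraries did not overlap for BHLHE40, BHLHE41 and PER2 among the 9 tested, against 37.7% of all genes tested, and for PER3. PER2 differed by -0.24 (SE 0.31, q = 0.632) and PER1 by -0.16 (SE 0.23, q = 0.659), so neither passed the test. CLOCK was 0.34 (SE 0.19) higher with sh#1, with q = 0.194, which became 0.0495 without the first sh#2 library. The values for CRY1, CRY2, NR1D2 and DBP lay between -0.36 and 0.10 with q of at least 0.572.

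**Figure D2:**
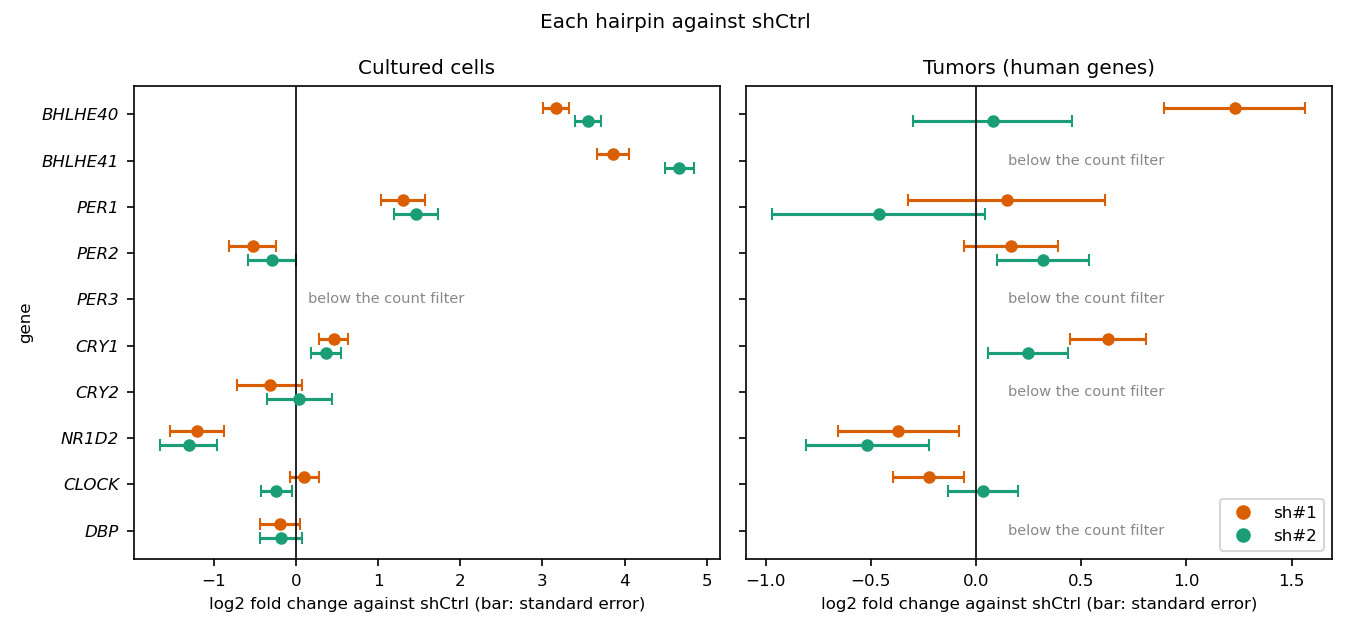
Log2 fold change of each gene with sh#1 and with sh#2 against shCtrl (x axis, points, with the standard error as bar) in cultured cells and in tumors, whose x axes differ. In culture the points of BHLHE40 and BHLHE41 lie between 3.17 and 4.66 for both hairpins, while in tumors BHLHE40 lies at 1.23 with sh#1 and at 0.08 with sh#2.

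In the xenograft tumors, BHLHE40 was higher in part of the sh#1 tumors, and no member passed the test in the comparison of all KD tumors with controls. The 5 shCtrl tumors had 15.3, 23.8, 31.9, 16.01 and 16.9 normalized CPM of BHLHE40, the sh#1 tumors 88.8, 74.6, 36.1, 30.5 and 30.3, and the sh#2 tumors 12.8, 13.4, 27.8, 31.0 and 19.1. The first 3 sh#1 tumors lay above all controls and the other two inside their range, while 3 sh#2 tumors lay inside that range and 2 below it. The log2 fold change of BHLHE40 was 1.23 (SE 0.34, q = 0.109, edgeR) with sh#1 and 0.08 (SE 0.38, q = 0.956) with sh#2, and the hairpins differed by 1.15 (SE 0.34, q = 0.173). With the threshold of 0.1 that the study used for tumors, these did not pass. The value with sh#1 was past the threshold in 8 of 20 alternatives, with q of 0.0146 in DESeq2, 1.6e-05 without the low-count filter and 0.0881 with the mouse-to-human count ratio as a term. It was 1.05 (q = 0.127) when sh#1 tumor 1 was left out and 0.99 (q = 0.18) when tumor 2 was, and it passed with shCtrl tumor 3, with tumor 4 or 5 of sh#1, or with tumor 4 of sh#2 left out (q of 0.0519 to 0.0936). The difference of the hairpins passed in DESeq2 (q = 0.0343), without the filter (q = 0.00015) and with the mouse ratio (q = 0.0114). Each group of tumors was in a library mix of its own in the deposited barcode list, so mix and group cannot be told apart, and in bulk tissue fewer cells of a type and less RNA per cell cannot be told apart.

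The 2 tumors highest in BHLHE40 also held much mouse RNA. Mouse counts were 30% of human and mouse counts in sh#1 tumor 1, which had the lowest human total, and 18.7% in sh#1 tumor 2, against 10.4% to 11.3% in the other sh#1 tumors, 10.4% to 14.4% in shCtrl and 13% to 18.8% in sh#2. In sh#1 tumor 1 the summed level of the mouse skin and muscle markers, of which 3 of 4 were listed, was 4740 normalized CPM, with 509 counts of Acta1, a skeletal muscle actin, and 111 of Ckm, muscle creatine kinase. In sh#1 tumor 2 that sum was 204. Of all 9184 genes, 16.2% had their highest level of the 15 tumors in sh#1 tumor 1, the largest share of any tumor. Beside that share, 11 of the 24 clock genes that passed the filter had their highest level there. PER1 (36.1 normalized CPM on 13 counts), NFIL3 (36.1 on 13) and RORA (55.5 on 20) were among them, and below the filter BHLHE41 was highest there too, on 6 counts. The same sum ran from 60.1 to 1020 in shCtrl, from 34.2 to 75.9 in the other sh#1 tumors and from 24.6 to 899 in sh#2. The part of mouse tissue in the human BHLHE40 values was not tested beyond the fit with the mouse ratio, which gave 0.94 for sh#1, -0.23 for sh#2 and 1.17 for the difference of the hairpins. The sh#2 tumor with 18.8% mouse counts had 13.4 normalized CPM of BHLHE40.

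**Figure D3:**
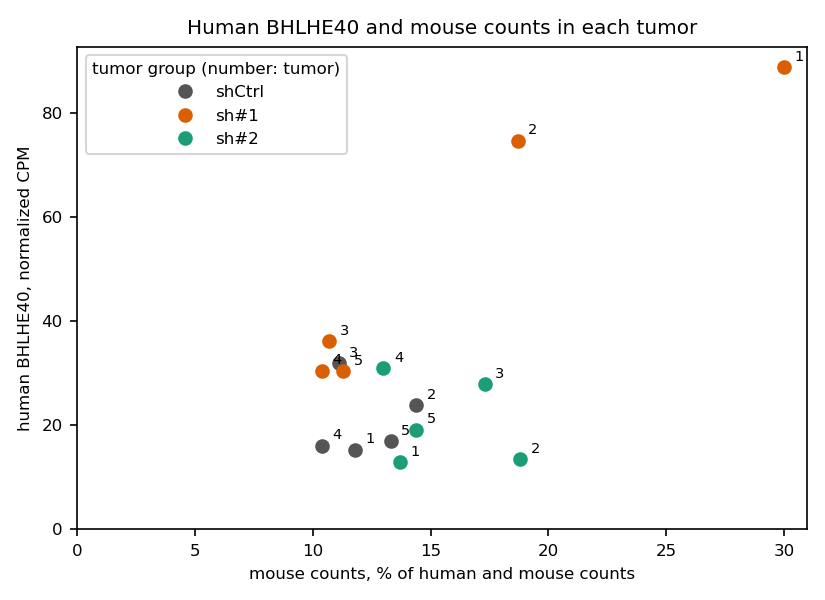
Human BHLHE40 in normalized CPM (y axis) against the mouse share of all counts in percent (x axis) in each of 15 tumors, with colors for the group and numbers for the tumor within it. The 2 sh#1 tumors at 88.8 and 74.6 normalized CPM have mouse shares of 30% and 18.7%, and the other 13 tumors lie at or below 36.1.

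BHLHE41 was near the limit of detection in tumors and did not pass the low-count filter. It had 1, 0, 2, 5 and 1 counts in the shCtrl tumors, 6, 8, 3, 2 and 10 in sh#1 and 1, 4, 6, 5 and 0 in sh#2, so the groups overlapped. With no filter on low counts, its log2 fold change was 1.87 (SE 0.57, q = 0.114) with sh#1, 1.00 (SE 0.64, q = 0.61) with sh#2 and 1.49 (SE 0.53, q = 0.238) in CDH11 KD. Across the 15 tumors the log2 levels of BHLHE40 and BHLHE41 had a correlation of 0.65, and of 0.439 after group means were taken off, as a description over libraries that differ in depth.

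CRY1 was the member past the threshold in tumors, in the comparison of sh#1 with shCtrl. Its levels were 29.7, 23.8, 26.2, 29.4 and 42.9 normalized CPM in shCtrl, 49.95, 40.7, 54.1, 39.2 and 48.5 in sh#1 and 35.5, 36.3, 34.5, 29.9 and 43.9 in sh#2. All sh#1 tumors lay above 4 of the 5 controls, and shCtrl tumor 5 reached their range. The log2 fold change was 0.63 (SE 0.18, q = 0.0972) with sh#1, 0.25 (SE 0.19, q = 0.615) with sh#2 and 0.45 (SE 0.17, q = 0.238) in CDH11 KD, and the hairpins differed by 0.38 (SE 0.18, q = 0.482). The call with sh#1 was lost in 16 of 21 alternatives, with values from 0.56 to 0.74 over all of them. It held when every library had to reach 10 counts and when tumor 5 of shCtrl, tumor 4 of sh#1, or tumor 4 or 5 of sh#2 was left out, and was lost when any of the other 11 tumors was (q of 0.113 to 0.245). Without tumor 5 of shCtrl, CRY1 passed in CDH11 KD as well (q = 0.0773).

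The other members differed little between tumor groups in relation to their spread. PER1 ran from 3.25 to 21.7 normalized CPM in shCtrl (median 12.5), 6.36 to 36.1 in sh#1 (median 15.2) and 4.79 to 18.5 in sh#2 (median 9.40), with a log2 fold change of -0.12 (SE 0.42, q = 0.94) in CDH11 KD. PER2 ran from 16.01 to 28.1 in shCtrl, 13.9 to 27.6 in sh#1 and 19.9 to 31.6 in sh#2, with 0.24 (SE 0.19, q = 0.636). NR1D2 was below the shCtrl mean in 9 of 10 KD tumors, the exception being sh#1 tumor 2 at 44.1 normalized CPM. Its levels were 20.9, 36.8, 28.5, 26.7 and 26.0 in shCtrl, 8.32, 44.1, 15.9, 19.6 and 13.1 in sh#1 and 24.2, 16.1, 24.9, 11.7 and 19.1 in sh#2, with a log2 fold change of -0.44 (SE 0.24, q = 0.46). CLOCK ran from 34.2 to 58.2 in shCtrl, 38.4 to 52.7 in sh#1 and 42.1 to 54.0 in sh#2, with -0.09 (SE 0.15, q = 0.846). PER3, CRY2 and DBP had 0 to 6, 0 to 11 and 3 to 11 counts per tumor and did not pass the filter, and DBP was below the shCtrl mean in 9 of 10 KD tumors, without a test past the threshold when the filter was dropped (-0.42, SE 0.35, q = 0.639).

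**Figure D4:**
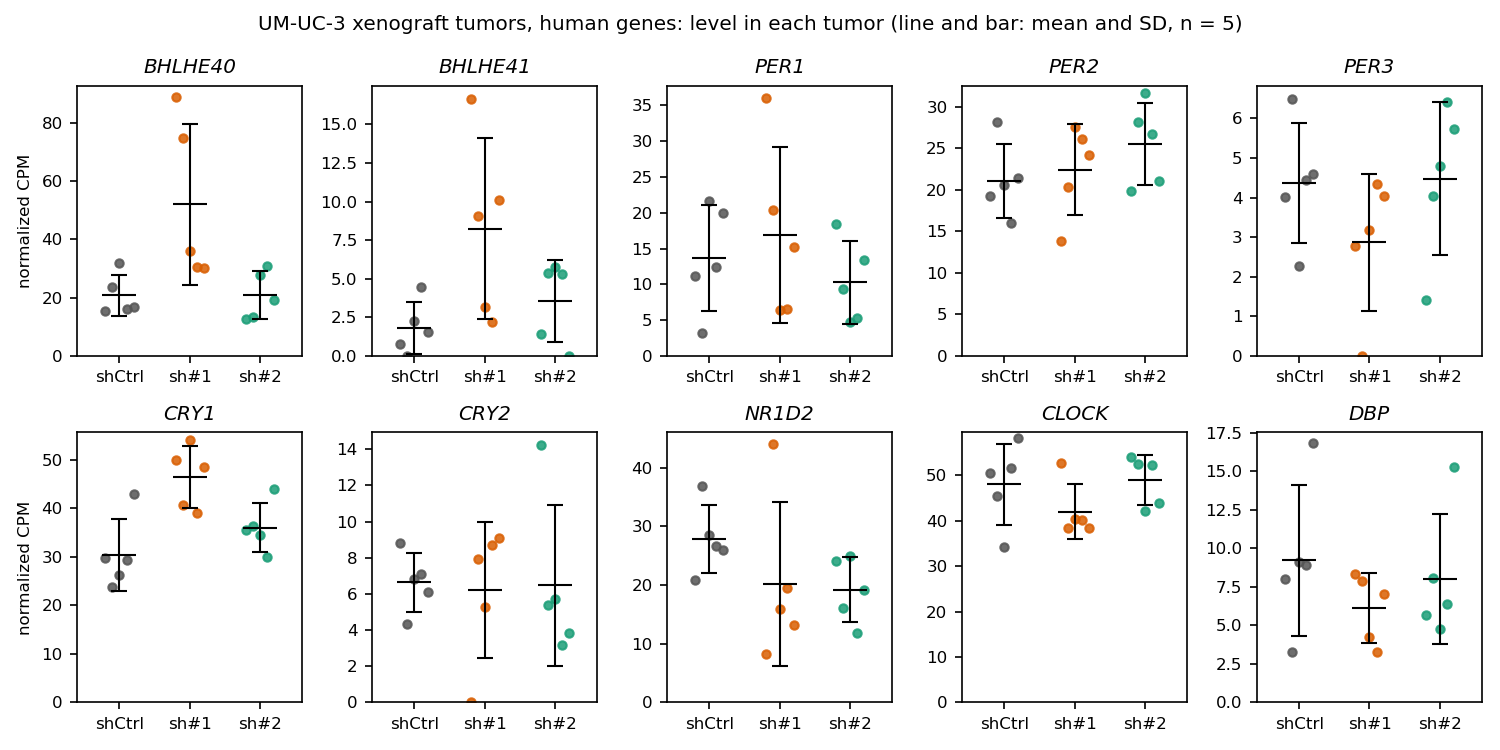
Normalized CPM (y axis, linear from 0, a scale of its own for each gene) of the 10 human genes in each tumor, with 5 shCtrl, 5 sh#1 and 5 sh#2 tumors as points and mean and SD as line and bar. The groups overlap for every gene, and BHLHE40 reaches 88.8 and 74.6 in 2 sh#1 tumors against at most 31.9 in shCtrl.

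Of the 6 members tested in tumors, 0 were past q of 0.1 in CDH11 KD in edgeR (1 at an unadjusted p under 0.05, and 0 past the threshold in DESeq2), beside 1.51% of 9184 genes. With sh#1 it was 1 member beside 1.48%, with sh#2 it was 0 beside 2.68% (0 at an unadjusted p under 0.05 and 0 in DESeq2), and between the hairpins 0 beside 1.19% (2 at an unadjusted p under 0.05, and 1 in DESeq2). None of the 6 was without overlap between the KD and shCtrl tumors, as 0.577% of genes were. Cultured cells and tumors were in tables normalized apart, so their difference was not tested.

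Of 27 other clock genes, 18 were tested in culture and 4 were higher and 0 lower in CDH11 KD, beside 17.4% of all genes called in either direction, with a median log2 fold change of 0.13 where that of all genes was 0.000166. NFIL3 (E4BP4), a repressor that competes with DBP at D-boxes, had 17.7, 12.7 and 17.2 normalized CPM in shCtrl, 54.9, 46.9 and 60.9 in sh#1 and 50.4, 53.5 and 37.5 in sh#2. All KD libraries were above the controls, where 22% of all genes tested did not overlap. The log2 fold change was 1.68 (SE 0.17, q = 3.7e-06 in edgeR's quasi-likelihood test). The list of other clock genes was drawn up with earlier results of these data known, so its q values are not from fresh samples. NOCT (nocturnin), a rhythmic phosphatase, rose by 1.24 (SE 0.33, q = 0.016), from 5 to 8 counts in shCtrl to 11 to 17 in KD libraries. It passed the low-count filter through the KD libraries, and fell short of the threshold without shCtrl library 3 (q = 0.0989). RORA, which activates BMAL1 where REV-ERB proteins repress it, rose by 1.23 (SE 0.34, q = 0.0221), a call that was lost without any 1 of the shCtrl libraries (q of 0.0529 to 0.114). CSNK1A1, a casein kinase, rose by 0.43 (SE 0.08, q = 0.0016). ARNTL (BMAL1), the partner of CLOCK, had 25, 25 and 19 counts summed over the 3 libraries of shCtrl, sh#1 and sh#2, and NPAS2, which can replace CLOCK, had 19, 15 and 21, both under the filter.

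The hairpins differed in 6 of these 18 genes in culture, beside 24.7% of all genes. RORA stood at 8.66, 4.92 and 7.24 normalized CPM in shCtrl, 13.9, 8.26 and 11.6 in sh#1 and 22.4, 26.3 and 17.0 in sh#2. It was lower with sh#1 than with sh#2 (a log2 difference of -0.95, SE 0.23, q = 0.0011). HDAC3, the deacetylase that REV-ERB proteins recruit, differed by -0.47 (SE 0.09, q = 0.0001) and TIMELESS, a replication fork protein linked to the clock, by 0.57 (SE 0.13, q = 0.00079). GSK3B, NONO and CIPC were past the threshold too, and each lost the call in 5 to 7 of 14 alternatives. With sh#1 against shCtrl, NFIL3, CSNK1A1 and NCOR1 were higher and GSK3B lower (4 of 18, beside 22.4% of all genes). NCOR1 lost its call in 3 of 14 alternatives, with 0.15 (q = 0.294, edgeR) when the third sh#1 library was left out, and GSK3B in 4. With sh#2, NOCT, HDAC3, CSNK1A1, NFIL3, RORA, CSNK1E and NONO were higher and TIMELESS lower (8 of 18, beside 38.3%), of which CSNK1E lost its call in 4 of 14 alternatives and NONO in 7.

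In tumors, 18 of the 27 were tested, with 1 higher and 0 lower in CDH11 KD, beside 1.51% of all genes, and a median of -1.27e-05 beside 0.0055 over all genes. ARNTL2 (BMAL2), a relative of BMAL1, had 195, 160, 173, 188 and 201 normalized CPM in shCtrl, 189, 242, 265, 184 and 233 in sh#1 and 292, 250, 221, 289 and 258 in sh#2. All sh#2 tumors lay above all controls, and the share of all genes without overlap between these groups was not counted. The log2 fold change with sh#2 was 0.51 (SE 0.12, q = 0.0193) and passed in all 21 alternatives. With sh#1 it was 0.29 (SE 0.12, q = 0.334), and for both hairpins together 0.41 (SE 0.11, q = 0.0802), which was lost in 13 of 22 alternatives, among them with any 1 of tumors 1 to 4 of shCtrl, tumors 2, 3 and 5 of sh#1, or tumors 1, 2, 4 and 5 of sh#2 left out (q of 0.1002 to 0.224). In culture ARNTL2 differed by 0.06 (SE 0.13, q = 0.795). CSNK1E was higher with sh#1 by 0.55 (SE 0.16, q = 0.0972), lost in 13 of 21 alternatives, and without sh#1 tumor 1 the value was 0.39 (q = 0.276). NFIL3 stood at 9.63, 13.0, 10.3, 7.12 and 12.3 normalized CPM in shCtrl, 36.1, 19.2, 10.6, 14.1 and 21.2 in sh#1 and 1.42, 5.37, 8.62, 9.60 and 9.55 in sh#2. Every sh#1 tumor was above every sh#2 tumor, and the share of all genes without overlap between the hairpins was not counted either. The log2 difference of NFIL3 was 1.38 (SE 0.36, q = 0.0668). The call was lost with any 1 of tumors 1, 2 and 5 of sh#1 or tumors 1, 2 and 3 of sh#2 left out (q of 0.108 to 0.207). RORA differed by -0.18 (SE 0.41, q = 0.901) in CDH11 KD tumors. ARNTL, NPAS2 and NR1D1 were under the filter, with 14 to 20, 16 to 31 and 1 to 4 counts summed over the 5 tumors of a group.

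Among the relatives of the DEC genes, the HES and HEY repressors that share their Orange domain, HES1 was higher in CDH11 KD cultures. Of 11 such genes, 4 were tested in culture and 4 in tumors. HES1, the main Notch target of the family, had 26.0, 31.2 and 26.7 normalized CPM in shCtrl, 219, 243 and 217 in sh#1 and 135, 130 and 140 in sh#2 cultures. The groups did not overlap, where 22% of all genes tested did not overlap between CDH11 KD and shCtrl. The log2 fold change was 2.70 (SE 0.27, q = 8.9e-05 in edgeR) in CDH11 KD, for a list drawn up with earlier results of these data known. HES1 was higher with sh#1 than with sh#2 by 0.74 (SE 0.08, q = 1.5e-10), the order opposite to that of BHLHE40 and BHLHE41. HES7 was higher with sh#1 by 1.33 (SE 0.31, q = 0.00089). It was not past the threshold with sh#2 (0.61, q = 0.165) or in CDH11 KD (1.03, q = 0.0518). In tumors 0 of the 4 were past the threshold in edgeR in any of the comparisons, with 0 at an unadjusted p under 0.05. Of all genes, 1.51% (CDH11 KD), 1.48% (sh#1), 2.68% (sh#2) and 1.19% (between hairpins) were past it, so nothing is read from that count. HES1 differed by 0.22 (SE 0.16, q = 0.604) in CDH11 KD tumors.

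The mouse forms of the members, read in the host tissue of the same tumors, gave few counts. Bhlhe41 had 7 to 13 counts in shCtrl, 2 to 18 in sh#1 and 4 to 23 in sh#2 tumors, and it was the only member form past the filter, with a log2 fold change of 0.03 (SE 0.34, q = 0.99). Bhlhe40 had 1 to 8, 2 to 12 and 3 to 5 counts, Per1 0 to 4, 1 to 5 and 1 to 5, and Nr1d2 2 to 6, 0 to 2 and 1 to 5. The other 6 had at most 8 counts in any tumor. Among 7 mouse clock genes tested in CDH11 KD, 0 were past q of 0.1 in edgeR (0 at an unadjusted p under 0.05, and 0 in DESeq2). This stands beside 0% of 1669 mouse genes (92 at an unadjusted p under 0.05). With sh#1 alone, Gsk3b differed by -0.69 (unadjusted p = 0.0133, q = 0.493 in edgeR). No change in the host clock was detected, and whether the low depth hid one was not tested.

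The genes whose pattern was most like that of the DEC genes were named by correlation of log2 normalized CPM over all libraries of a system, with no test. Over 9 cultured libraries and 8109 genes, the genes most like BHLHE40 included MXI1 (0.996), TM4SF1 (0.995), ADM (0.994) and ANGPTL4 (0.994). BHLHE41 was most like PPP1R3C (0.998), PFKFB4 (0.998), PLAUR (0.997), MXI1 (0.996) and ANGPTL4 (0.996). MXI1, a MYC antagonist, averaged 65.8 normalized CPM in shCtrl, 224 in sh#1 and 288 in sh#2. ADM, which encodes adrenomedullin, averaged 75.3, 816 and 886, and PFKFB4, an enzyme that controls glycolysis, 9.47, 57.1 and 76.1. The libraries share the group difference, and after group means were taken off the correlations of these 4 genes with BHLHE40 ran from -0.321 (ANGPTL4) to 0.735 (MXI1) and those with BHLHE41 from 0.409 to 0.886. BHLHE40 and BHLHE41 had a correlation of 0.992 over the 9 libraries and of 0.001 within groups.

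Over 15 tumors, the genes most like BHLHE40 were ATP5PD (0.857), SAMD8 (0.856), CDK7 (0.856), CEBPB (0.856) and PGK1 (0.85), with 0.712 to 0.792 after group means were taken off. PGK1, a glycolytic kinase, averaged 461 ± 174 (SD, n = 5) normalized CPM in shCtrl, 775 ± 452 in sh#1 and 458 ± 80.1 in sh#2 tumors. Its mean was highest with sh#1, as that of BHLHE40 was, with a wide spread between the sh#1 tumors. Of all 9184 genes, 16.2% had their highest level in sh#1 tumor 1, and the part of that tumor in these correlations was not tested. The genes most like BHLHE41 were ATP2C1 (0.849), AIFM2 (0.832), SEMA4B (0.816), ARPC3 (0.807) and KLF7 (0.802), on 0 to 10 BHLHE41 counts per tumor. None of the genes named for culture was among the 5 of the same DEC gene in tumors.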

How the data were processed

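RNA-seq libraries of UM-UC-3 cultures (9) and of xenograft tumors (15) were compared between shCtrl, sh#1 and sh#2, as the labels group them. Tables of raw gene counts were deposited by the authors. Per the methods of the study, cultured reads were trimmed in CLC Genomics Workbench and mapped to hg38 with RaNAseq, and tumor reads were trimmed with trim galore and mapped to hg38 with HISAT2. The counting program, the annotation, the use of molecular identifiers and the separation of human and mouse reads are not given in the sources used here, and 13 rows without values in the culture table are not used here.

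From these counts, edgeR 4.0.16 in R 4.3.3 (TMM, filterByExpr, robust quasi-likelihood test, Benjamini-Hochberg adjustment over all genes tested) gave log2 fold changes for CDH11 KD (both hairpins) and, in a fit of 3 groups, for each hairpin and their difference, with thresholds of 0.05 in culture and 0.1 in tumors. The standard error was the fold change divided by the root of its F statistic. Normalized CPM used TMM library sizes, and correlations log2 CPM with a prior count of 2 and genes averaging 20 counts or more. The fits were tested on simulated counts. Promoters came from RefSeq, with 5 motifs searched (E-box, hypoxia core, CRE TGACGTCA, D-box and AGGTCA), and figures were drawn with matplotlib 3.10.9. Tables were normalized apart and tested only within each.

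The members and lists were chosen with earlier results of these data known. Named were all 10 members, the other clock genes past a threshold with ARNTL, NR1D1, NPAS2 and RORA, the bHLH-Orange relatives past it, the 5 genes most like each DEC gene in each system (1 is not reported here), and the mouse forms. Alternatives tried were each library left out in turn, the replicate number as a block, upper quartile scaling, a filter of 10 counts in each library or none, 3 groups for CDH11 KD, DESeq2 1.42.0, and for tumors the log2 mouse-to-human ratio as a covariate. Replicate pairs of a group differed by more than sampling noise, so each library was kept. Totals from 414849 to 2777019 counts limit the precision of genes with few counts.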

Additional observations from a re-analysis of the deposited data

Results flagged for a closer look

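Among 30 groups of 5 tumors (10 genes in 3 groups), 2 held a tumor whose gap to the nearest other tumor was over 0.71 of the range of its group, and chance alone marks about 1 group in 20. CRY2 stood at 14.2 normalized CPM, on 10 counts, in sh#2 tumor 1, where the other sh#2 tumors ran from 3.20 to 5.75. CLOCK stood at 52.7, on 19 counts, in sh#1 tumor 1, where the other sh#1 tumors ran from 38.4 to 40.3. The latter tumor had the lowest human total of the 15.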

How the results depend on the processing

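The mouse clock genes and the members with sh#2 in tumors had 0 past the threshold in all 21 alternatives. In the main fits in culture, the shares of all genes past it were 17.4% (CDH11 KD), 22.4% (sh#1), 38.3% (sh#2) and 24.7% (between hairpins). In tumors these shares were 1.51%, 1.48%, 2.68% and 1.19%. Shares under the alternatives are not given here, so nothing is read from the counts of members below. Requiring at least 10 counts in every library left 2 members past the threshold in CDH11 KD, 2 with sh#1, 2 with sh#2 and 1 between the hairpins in culture, since BHLHE41 and NR1D2 then fell out of the test, and with sh#1 CRY1 stayed in the test and missed the threshold. DESeq2 gave 3 with sh#1, without CRY1 and NR1D2. With each library left out, the members past the threshold were 4 to 4 (CDH11 KD), 4 to 5 (sh#1), 4 to 4 (sh#2) and 2 to 3 (between hairpins) in culture and 0 to 1, 0 to 2, 0 to 0 and 0 to 0 in tumors. The other clock genes were 2 to 4 in culture, 2 of them without shCtrl library 3, and 0 to 1 in tumors. In tumors, DESeq2, no low-count filter and the mouse ratio each gave 1 member between the hairpins, BHLHE40. Without the filter 0 other clock genes passed in CDH11 KD tumors. The replicate number as a block gave 4, 5, 4 and 2 members in culture and 0, 0, 0 and 0 in tumors, where CRY1 (sh#1) and, among the other clock genes, ARNTL2 (CDH11 KD, 0 left), CSNK1E (sh#1) and NFIL3 (between hairpins) were lost, and RORA was lost in culture. The labels do not say whether the numbers pair the samples. Deviations of libraries with the same number had correlations from -0.0051 to 0.0551 in culture and -0.096 to 0.126 in tumors. The best match in both other groups carried the library's own number for 4 of 9 cultured libraries and 0 of 15 tumors. A weak pairing in culture was not excluded.

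Signs turned only for values near 0 that passed in no alternative. With 1 library left out, culture values of CLOCK ran from -0.098 to 0.052 (CDH11 KD) and of CRY2 from -0.22 to 0.22 (sh#2), and between the hairpins those of CRY1 from -0.011 to 0.22, NR1D2 from -0.17 to 0.30 and DBP from -0.17 to 0.11, with 0.0056 under upper quartile scaling. In tumors, PER1 ran from -0.37 to 0.11 (CDH11 KD) and from -0.13 to 0.38 (sh#1), BHLHE40 from -0.12 to 0.28 (sh#2), CLOCK from -0.065 to 0.086 (sh#2) and NR1D2 from -0.34 to 0.30 (between hairpins). The mouse ratio turned PER1 (sh#1, -0.16), BHLHE40 (sh#2, -0.23) and CLOCK (sh#2, -0.018), and no filter CLOCK (sh#2, -0.0043). The cause was not tested. Tumor depth leaves BHLHE41, PER3, CRY2 and DBP at 0 to 11 counts, too few for a firm statement.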
